A study of Mus musculus with 12 samples.

Results

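The regions described here are stretches of open liver chromatin found in Control, Sham and VSG mice alike whose FAIRE signal stood higher in the ranking of Sham mice than in that of both other groups. In FAIRE-seq, chromatin is fixed with formaldehyde and the DNA that nucleosomes do not hold is collected and sequenced, so that a region rich in reads is taken as accessible. The 3 deposited peak lists, 1 per group, were merged into a union of 59246 regions, of which 32716 were present in all 3 lists and 28434 of these were under 1000 bp. In each list the highest F-seq signal of the overlapping peaks was turned into a percentile from 0 to 1 among these 28434 shared regions. The regions were selected on these values: 2522 of the 28434 shared regions (8.87%) had a Sham percentile at least 0.2 above both the Control and the VSG percentile. The smaller of the 2 differences is called the margin.

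All mice were male C57BL/6J. Sham and VSG mice received a 60 kcal% fat diet from 8 weeks of age for 14 weeks before surgery and for a further 14 weeks after it, while Control mice stayed on standard chow for 28 weeks and had no surgery. In VSG (vertical sleeve gastrectomy) about 80% of the stomach was removed, and in the Sham procedure the stomach was isolated and only pressed with forceps. The Sham and VSG groups thus share the diet, whereas Sham and Control mice differ in both diet and surgery, which cannot be told apart here. Livers of 2 mice per group gave FAIRE-seq and, from the same livers, RNA-seq. Each FAIRE list combines both mice of its group, so the FAIRE values have no error from replicates and are given without a test, and the read depth behind them was not at hand.

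Liver DNA is opened at promoters, many of which are rich in CpG and in sites for broadly expressed factors such as SP1, NRF1 and the ETS family, and at distal enhancers in introns and between genes. Hepatocyte enhancers are known to carry sites for HNF4A, FOXA, C/EBP and nuclear receptors such as PPARA, which binds with RXR to 2 copies of AGGTCA set 1 base apart (DR1). AP-1, the dimer of FOS and JUN proteins, binds TGANTCA and acts downstream of growth factor, stress and cytokine signals. Each of these motifs can be looked for in the sequence of a region, where a match is a description and not evidence of binding.

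Of the 4 regions with the largest margins, 3 are shown first because they give the clearest picture of the pattern that chose the set. The Klf3 window is chr5:65099066-65099265, the Tspan9 window chr6:127989472-127989671 and the Socs2 window chr10:94871233-94871432, each 200 bp around the Sham summit on the plus strand of mm9. Each is named after the gene whose transcription start site (TSS) lay closest. Capitals mark matches to the AP-1, C/EBP, FOXA, HNF4A, HNF1 or DR1 motif on either strand.
Klf3 region: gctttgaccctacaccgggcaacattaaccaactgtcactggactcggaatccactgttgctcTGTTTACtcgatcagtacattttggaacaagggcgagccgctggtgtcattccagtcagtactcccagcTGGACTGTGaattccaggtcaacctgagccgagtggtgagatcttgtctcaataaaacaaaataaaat
Tspan9 region: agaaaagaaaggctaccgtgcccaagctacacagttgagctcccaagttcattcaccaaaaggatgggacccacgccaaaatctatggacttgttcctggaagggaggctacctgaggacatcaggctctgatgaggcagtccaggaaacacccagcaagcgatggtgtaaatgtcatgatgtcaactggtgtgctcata
Socs2 region: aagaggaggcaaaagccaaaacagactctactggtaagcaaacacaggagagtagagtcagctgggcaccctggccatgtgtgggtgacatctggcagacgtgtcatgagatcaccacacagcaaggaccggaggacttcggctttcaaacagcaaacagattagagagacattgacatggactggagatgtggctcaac
The Klf3 region held a FOXA and an HNF4A match, and the other two held no match to these motifs. The Klf3 region was intergenic, 95329 bp from the TSS, and the Tspan9 and Socs2 regions lay in introns of these genes, 4816 and 3865 bp from the TSS. Klf3 encodes a Krüppel-like transcription factor, Tspan9 a tetraspanin membrane protein, and Socs2 an inhibitor of growth hormone and cytokine signalling. At the Klf3 region the percentile was 0.073 in Control mice, 0.764 in Sham mice and 0.096 after VSG, the largest margin of the set at 0.668. At the Socs2 region it was 0.114 in Control mice, 0.851 in Sham mice and 0.220 after VSG. The VSG value was close to the Control value at the Klf3 region and between the other two at the Socs2 region. The regions near Sh3bp5, Lyst, Rps10, Dpyd, 3930402G23Rik and Gm4889 followed, with Sham percentiles from 0.659 at Dpyd to 0.881 at Sh3bp5. In the same 6 regions the Control percentiles were 0.0435 to 0.223 and the VSG percentiles 0.0526 to 0.265, below every Sham value.

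The next set is shown because these regions lie near genes of the functional lists and hold a match to one of the motifs. For each list of genes described further down, the region with the largest margin that lay beyond 1000 bp of a TSS and held a match was taken, and the 6 with the largest margins are given. They are the regions near Timp3 (chr10:85749355-85749554), an inhibitor of matrix proteases, Pfkfb3 (chr2:11386329-11386528), which makes the activator of glycolysis fructose 2,6-bisphosphate, and Hpd (chr5:123641556-123641755), an enzyme of tyrosine breakdown. The others are those near Gata4 (chr14:63927977-63928176), a transcription factor, Elovl5 (chr9:77798736-77798935), which elongates polyunsaturated fatty acids, and Akr1d1 (chr6:37455679-37455878), a reductase of bile acid synthesis. Capitals have the same meaning as above.
Timp3 region: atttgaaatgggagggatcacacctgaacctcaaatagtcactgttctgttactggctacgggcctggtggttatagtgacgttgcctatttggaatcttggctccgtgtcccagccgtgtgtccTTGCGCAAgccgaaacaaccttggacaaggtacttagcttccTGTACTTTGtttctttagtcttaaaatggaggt
Pfkfb3 region: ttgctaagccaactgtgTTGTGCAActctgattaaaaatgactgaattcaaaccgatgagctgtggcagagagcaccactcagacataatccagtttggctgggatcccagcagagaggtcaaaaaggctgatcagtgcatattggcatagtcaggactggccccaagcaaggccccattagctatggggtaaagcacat
Hpd region: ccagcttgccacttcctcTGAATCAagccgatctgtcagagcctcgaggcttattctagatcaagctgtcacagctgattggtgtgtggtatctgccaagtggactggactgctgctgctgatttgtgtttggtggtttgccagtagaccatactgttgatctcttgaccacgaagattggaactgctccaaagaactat
Gata4 region: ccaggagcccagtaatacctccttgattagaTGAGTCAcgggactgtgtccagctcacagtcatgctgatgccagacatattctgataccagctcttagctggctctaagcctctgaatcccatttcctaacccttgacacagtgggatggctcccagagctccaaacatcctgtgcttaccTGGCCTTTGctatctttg
Elovl5 region: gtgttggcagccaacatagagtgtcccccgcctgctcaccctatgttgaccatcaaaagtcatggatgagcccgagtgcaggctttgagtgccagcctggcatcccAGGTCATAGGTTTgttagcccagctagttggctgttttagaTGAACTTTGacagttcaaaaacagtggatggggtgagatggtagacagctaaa
Akr1d1 region: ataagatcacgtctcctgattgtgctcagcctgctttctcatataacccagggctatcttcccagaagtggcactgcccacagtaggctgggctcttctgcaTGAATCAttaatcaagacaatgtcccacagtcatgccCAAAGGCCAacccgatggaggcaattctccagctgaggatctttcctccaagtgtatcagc
The Timp3 region, in an intron of Syn3, held a C/EBP and an HNF4A match, and the Pfkfb3 region, between genes, a C/EBP match. The Hpd region, in an intron of Gm17627, held an AP-1 match, and the Gata4 and Akr1d1 regions, between genes, each held an AP-1 and an HNF4A match. The Elovl5 region, in an intron of Elovl5 itself, held a DR1 and an HNF4A match. In the Hpd region the percentile was 0.177 in Control mice, 0.906 in Sham mice and 0.442 after VSG, so that VSG stood between the other two. In the Gata4 region it was 0.0218, 0.578 and 0.142 in the same order.

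Across all 2522 regions the median percentile was 0.208 in Control mice, 0.632 in Sham mice and 0.292 after VSG. The F-seq signal itself had medians of 0.192, 0.650 and 0.257. The signal was highest in Sham at 100% of these regions, against 81.2% of all shared regions, since the Sham list had larger values throughout (median of all shared regions 0.279 in Control mice, 0.531 in Sham mice and 0.346 after VSG). The ranks, rather than the signal, therefore carry the contrast. Margins were at least 0.3 in 950 regions, at least 0.4 in 298, at least 0.5 in 62 and at least 0.6 in 9, with a median of 0.275.

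**Figure D1:**
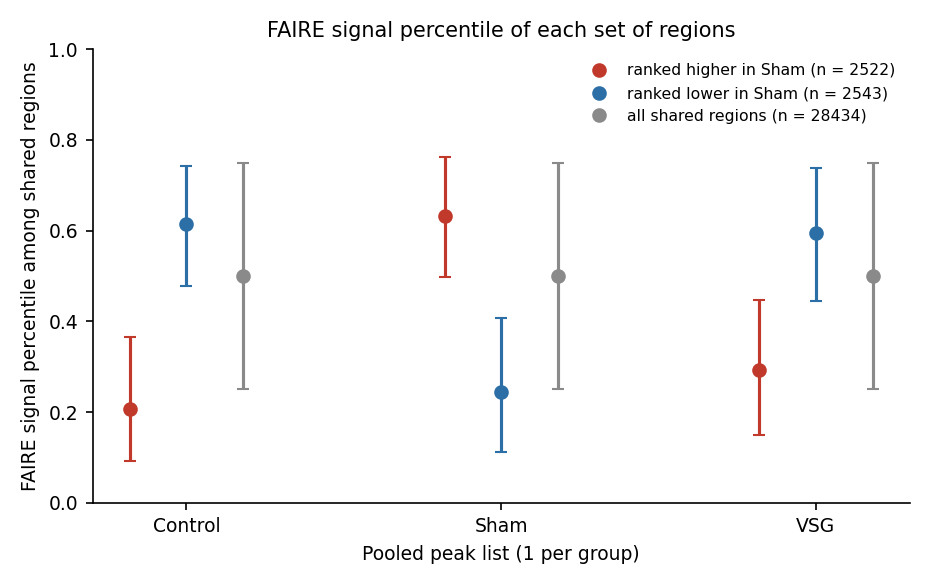
Median FAIRE signal percentile (y axis, 0 to 1) in the Control, Sham and VSG lists (x axis) for the regions ranked higher in Sham, those ranked lower in Sham and all shared regions; bars span the 25th to 75th centile over regions, not over mice. The regions ranked higher in Sham have medians of 0.208, 0.632 and 0.292, a pattern that the selection itself produced.

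The VSG percentile was above the Control percentile in 1659 of the 2522 regions (65.8%), against 49.2% of all shared regions. The 2 lay within 0.1 of each other in 1448 (57.4%), a share that was not taken over all shared regions. The selection held both percentiles at least 0.2 below Sham, so neither share is a result apart from it. The Sham peak was also the widest of the 3 in 87.0% of the regions, against 62.6% of all shared regions. Peak width comes from the same lists as the signal. The selection has no gap at its threshold. Just inside it, the region in an intron of Hdlbp, nearest to Gm17415, had percentiles of 0.645 in Control mice, 0.845 in Sham mice and 0.543 after VSG. Just outside it, the intergenic region near Mtm1 had 0.227, 0.450 and 0.250. The regions just inside near 4930522L14Rik, Nudt4, 1190002N15Rik and Ppap2b had Sham percentiles of 0.531, 0.665, 0.775 and 0.409, and those just outside near Abra, Olfml2b, Wisp1 and 4933440J02Rik had 0.566, 0.626, 0.566 and 0.673.

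The opposite set, with a Sham percentile at least 0.2 below both others, held 2543 regions (8.94%) and serves as the nearest comparison. The regions ranked higher in Sham lay away from genes' starts. Only 256 (10.2%) were within 1000 bp of a TSS, compared with 34.8% of all shared regions and 59.6% of the regions ranked lower in Sham. Introns held 1138 (45.1%) and intergenic sequence 1060 (42.0%), against 31.4% and 30.3% of all shared regions, and exons held 68 (2.70%). Turned around, 12.8% of the shared intronic and 12.3% of the shared intergenic regions ranked higher in Sham, but 2.59% of those at promoters. The median distance to the nearest TSS was 12940 bp, against 4743 bp for all shared regions and 215 bp for the regions ranked lower, and 205 regions were more than 100 kb from any TSS. Location was not used by the selection, but it moved with the base composition described next.

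**Figure D2:**
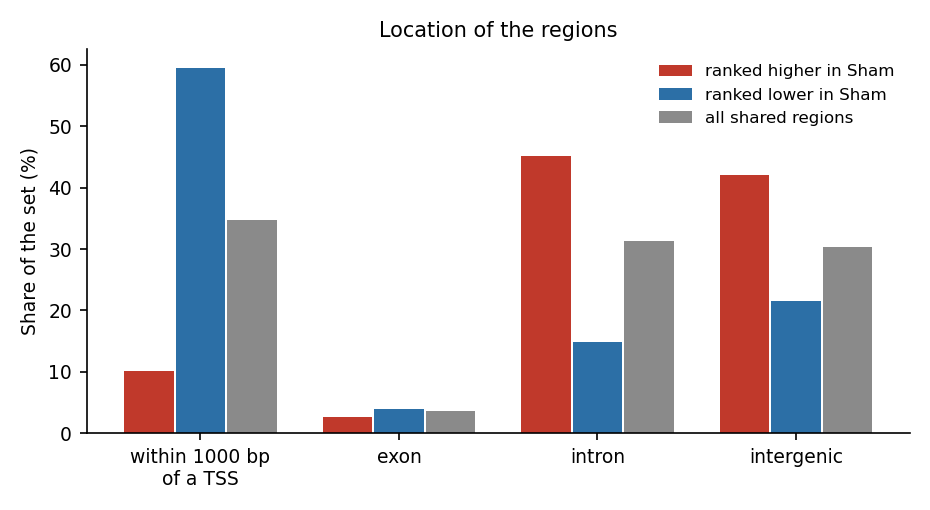
Share of each set (y axis, %) at promoters (a TSS no more than 1000 bp away), in exons, in introns and between genes (x axis). The regions ranked higher in Sham have 10.2% near a TSS, the regions ranked lower 59.6% and all shared regions 34.8%.

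The regions were poor in G and C. Their median GC content was 49.1%, compared with 53.3% for all shared regions and 60.5% for the regions ranked lower in Sham. When all shared regions were ordered by GC content and divided into 5 groups of equal size, the share that ranked higher in Sham was 24.9% in the lowest group, then 12.7%, 5.40% and 1.35%, and 0.0176% (1 of 5687 regions) in the highest. The share that ranked lower in Sham ran the other way, from 1.30% to 24.5%. Beyond 1000 bp of a TSS the gradient was as steep, from 25.4% in the lowest to 0.138% in the highest group. Regions with a high CpG ratio were rare in the set: in the 200 bp around the summit 4.44% of the regions had a ratio of observed to expected CpG over 0.6, compared with 27.0% of all shared regions and 58.2% of those ranked lower. The 3 lists pool their mice, so the gradient has no replicate error, and the part of GC content in the ranking was not tested beyond the ranking within GC bins given next.

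**Figure D3:**
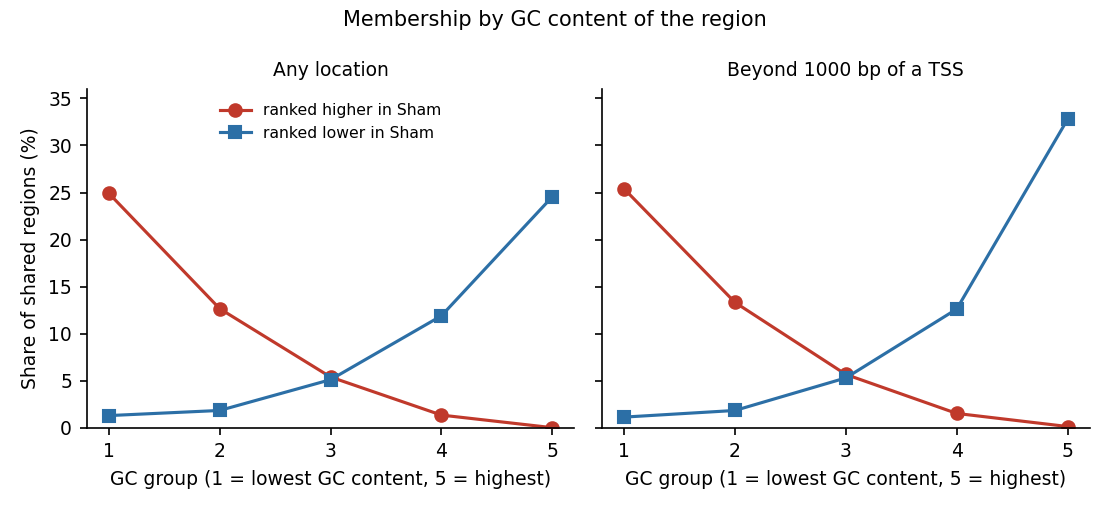
Share of the shared regions (y axis, %) that ranked higher or lower in Sham, by GC group (x axis, from 1 for the lowest to 5 for the highest GC content), for all locations (left) and beyond 1000 bp of a TSS (right). The higher set goes from 24.9% to 0.0176% over the groups and the lower set from 1.30% to 24.5%.

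Because the ranking followed GC content so closely, the percentiles were also taken within 20 bins of equal size in GC content, a choice made after the data were seen. With the same threshold 1400 regions (4.92%) then ranked higher in Sham, of which 1141 were among the 2522, that is 81.5% of the former and 45.2% of the latter. All 298 regions with a margin of at least 0.4 and 796 of the 950 with at least 0.3 were kept, among them all 10 with the largest margins. The regions found within GC bins had a median GC content of 51.4%, and 17.4% of them were within 1000 bp of a TSS, about as many as the 18.1% of the regions ranked lower within GC bins. The contrast between the higher and the lower set in their distance from promoters was thus no longer seen once regions of like GC content were ranked together, although both shares were below the 34.8% of all shared regions.

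The HNF4A, C/EBP, AP-1 and FOXA motifs were more frequent in the regions than in the shared regions at large, whereas some nuclear receptor motifs were not. To keep promoters apart, the shares are given for the 2266 regions beyond 1000 bp of a TSS and for all 18549 shared regions of that kind, with 200 bp around the Sham summit searched on both strands. The HNF4A motif CAAAGTCCA, with 1 mismatch allowed, was found in 22.1% against 16.1%. The C/EBP motif TTGCNNAA was found in 18.2% against 12.8%, the AP-1 motif TGANTCA in 14.0% against 8.99%, and the FOXA motif TGTTTAC in 7.28% against 4.81%. Among the distal regions ranked lower in Sham the 4 shares were 7.68%, 6.52%, 4.57% and 1.85%. DR1, with 2 mismatches allowed, was found in 12.4% against 11.1%, and the single copy AGGTCA, which a DR1 match can contain, in 32.7% against 28.2%. DR4, the same copies set 4 bases apart and bound by LXR-RXR, was found in 4.85% against 5.31%, the palindrome of the glucocorticoid receptor in 1.24% against 1.51%, and that of HNF1 in 3.18% against 2.70%. The CREB motif TGACGTCA was found in 0.794% against 0.663%.

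In the lowest groups of GC content, where these motifs are more frequent anyway, the differences were smaller. Among the 1955 distal regions of the set in the lowest 2 GC groups, AP-1 was found in 13.7% against 9.99% of all 10069 shared regions there. HNF4A was found in 22.5% against 18.2%, C/EBP in 18.3% against 15.1% and FOXA in 7.31% against 5.79%. DR1 stood at 12.1% against 12.2%. Among the 1157 distal regions ranked higher within GC bins, AP-1 was found in 16.6%, HNF4A in 20.5%, C/EBP in 17.3% and FOXA in 81 regions, while among the 1095 ranked lower within GC bins the first 3 were found in 5.66%, 9.77% and 10.6% and FOXA in 30 regions. Of these 4 motifs, AP-1 was the one whose share was higher among the regions found within GC bins than in the original set. DR1 was found in 12.4% of the regions ranked higher and 7.12% of those ranked lower within GC bins, AGGTCA in 30.1% and 21.2%, HNF1 in 3.03% and 2.01%, CREB in 0.778% and 0.365%, DR4 in 3.63% and 4.84% and the glucocorticoid palindrome in 0.864% and 1.37%. These shares are descriptions over regions of the same 3 lists, with no replicate error.

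Motifs of factors that act at promoters and at insulators were rarer in the set. Beyond 1000 bp of a TSS, the SP/KLF motif GGGCGG was found in 3.22% against 9.87% of all shared regions, the NRF1 motif GCGCANGCG in 0.132% against 0.792%, and the ETS motif CCGGAAG in 1.19% against 2.25%. The core CNAGGGGGC of the motif of CTCF, which marks insulators and loop anchors, was found in 0.618% against 3.07%. In the lowest 2 GC groups CTCF stood at 0.716% against 2.32%, and within GC bins at 0.259% of the regions ranked higher against 7.03% of those ranked lower. Within GC bins SP/KLF stood at 3.89% against 12.4%, NRF1 at 0.259% against 1.19% and ETS at 1.73% against 2.10%. Motifs of inflammatory factors were near the level of all shared distal regions: NF-kB, GGANTTTCC, in 0.883% against 1.10%, STAT, TTCCNGGAA, in 1.19% against 1.15%, IRF, GAAANNGAA, in 3.80% against 4.54%, and PU.1, GAGGAAGT, in 1.37% against 1.67%. For the E-box CACGTG, bound by the clock factors and USF, the shares were 7.77% and 6.15%. Between the regions ranked higher and lower within GC bins, STAT was found in 1.82% (21 of 1157) against 0.639% (7 of 1095), IRF in 3.37% against 6.39% and the E-box in 7.17% against 4.20%. NF-kB was found in 8 of 1157 against 11 of 1095 and PU.1 in 1.56% against 1.83%.

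**Figure D4:**
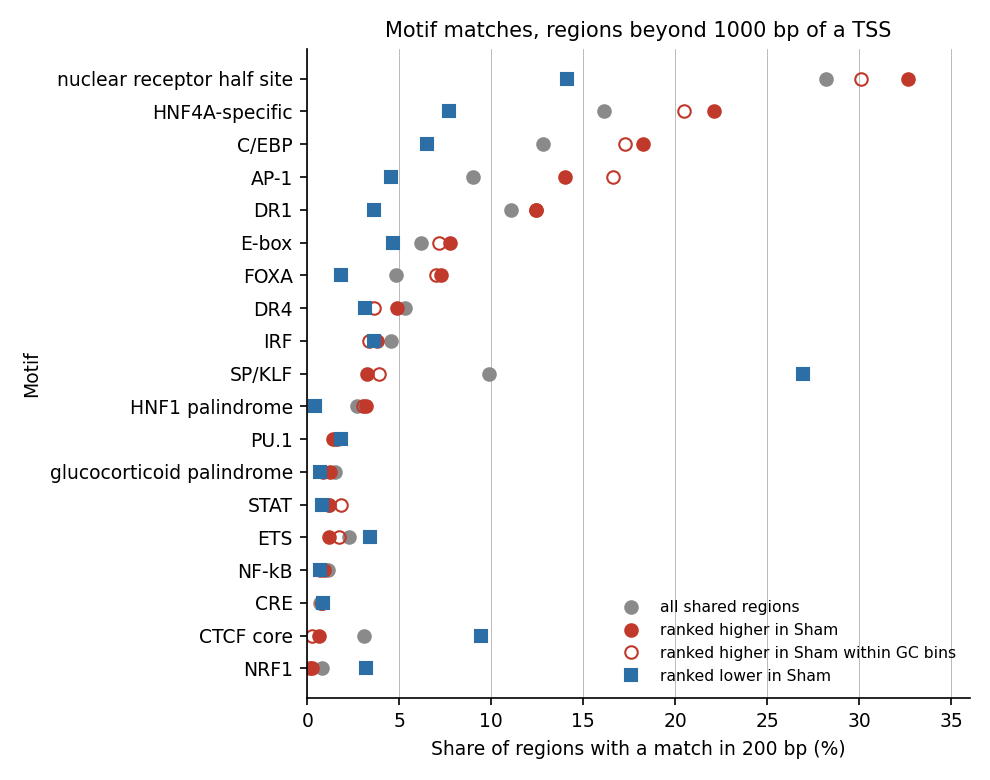
Share of regions beyond 1000 bp of a TSS with a match in 200 bp (x axis, %) for each of 19 motifs (y axis); filled red points are regions ranked higher in Sham, open red points the same within GC bins, blue squares regions ranked lower in Sham and grey points all shared regions. AP-1 has 14.0% in the higher set, 16.6% within GC bins and 8.99% in all shared regions, and CTCF 0.618% against 3.07%.

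The regions were spread over 1894 genes, counting the gene with the nearest TSS within 100 kb of 2317 of them. Of these genes, 71 had 3 or more and 16 had 4 or more. Without the limit on distance, Trib1, Rgs6 and 3930402G23Rik had the most, 6 each. Trib1 encodes a pseudokinase that lowers C/EBPA and lipogenesis in liver, and 19 shared regions had its TSS as the nearest. The 6 regions of Trib1 lay 13851 to 136436 bp from it, 3 of them in introns of the neighbouring Nsmce2, and their Sham percentiles ran from 0.471 to 0.855. The region 79356 bp away went furthest from Control, with 0.0392 in Control mice, 0.838 in Sham mice and 0.595 after VSG. Rgs6, a regulator of G protein signalling, had 6 of 11, 5 of them in its own introns. A region whose neighbouring shared region was also of the set made up 22.1% of the set, against 16.7% of all shared regions. The regions ranked lower in Sham did the same: 24.7% of them had a neighbour of their own kind, against 16.8% of all shared regions.

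By chromosome, the share of shared regions that ranked higher in Sham was largest on chromosomes 3 (12.1%), 6 (11.8%) and 13 (11.5%) and smallest among the autosomes on chromosome 11 (6.31%). On X it was 11 of 334 (3.29%).

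The genes nearest to the regions were grouped by function, for regions with a TSS within 100 kb. The shares below are of all shared regions near the genes of a list and are read against the 8.87% over all shared regions. Regions near genes of bile acid synthesis, transport and sensing ranked higher in Sham in 17 of 76 (22.4%), and within GC bins in 10 of 76 (13.2%, against 4.92% over all shared regions). Nr5a2, which encodes the receptor LRH-1 that drives bile acid synthesis genes, had 5 of its 16 shared regions in the set. In its intron at chr1:138812092-138812354 the percentile was 0.141 in Control mice, 0.579 in Sham mice and 0.123 after VSG. Near Nr1h4, the gene of the bile acid receptor FXR, an intergenic region stood at 0.279, 0.663 and 0.294. The other genes with a region were Abcb4, Abcc2, Abcc3, Akr1d1, Cyp27a1, Cyp8b1, Klb and Slco1b2.

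Regions near genes of glucose and insulin signalling ranked higher in Sham in 28 of 173 (16.2%), and within GC bins in 18 (10.4%). They included an intron of the insulin receptor gene Insr, with 0.131 in Control mice, 0.615 in Sham mice and 0.262 after VSG, and a region near Grb10, which encodes an inhibitor of that receptor, with 0.273, 0.850 and 0.505. For Pfkfb3 the intergenic regions at 29009 and 48007 bp had Sham percentiles of 0.663 and 0.434, where Control had 0.0904 and 0.0223. Irs2, Gys2, Pygl and Ppp1r3g were also among the genes with a region.

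Regions near acute phase genes, the plasma proteins that the liver changes in inflammation, ranked higher in Sham in 11 of 50 (22.0%). Within GC bins the count was 4 of 50 (8.00%). Near Fgg, the fibrinogen gamma chain, the percentile was 0.422 in Control mice, 0.836 in Sham mice and 0.447 after VSG. Near Steap4, a metalloreductase induced by inflammation, it was 0.411, 0.915 and 0.537, and at the promoter of Orm3, an orosomucoid, 0.0386, 0.449 and 0.0807. Among chemokine and adhesion genes 5 of 27 regions (18.5%) ranked higher in Sham, 2 of them within GC bins (7.41%). They lay near Cxcl1, Cxcl2, Ccl5, Ccl9 and Cxcl12. The region near Cxcl1, which attracts neutrophils, stood at 0.191 in Control mice, 0.839 in Sham mice and 0.474 after VSG. Among genes of interleukin 6 and NF-kB signalling the count was 11 of 97 (11.3%), with an intron of Jak2 at 0.138, 0.676 and 0.264, and 7 (7.22%) within GC bins.

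Regions near lipogenic genes ranked higher in Sham in 18 of 124 (14.5%; within GC bins 5.65%), those near cholesterol genes in 8 of 61 (13.1%; 3.28%), those near PPAR targets in 14 of 142 (9.86%; 2.82%) and those near apolipoprotein and lipoprotein genes in 8 of 69 (11.6%; 7.25%). At the promoter of Lpin1, a phosphatidate phosphatase of triglyceride synthesis, the percentile was 0.230 in Control mice, 0.739 in Sham mice and 0.299 after VSG. At a promoter of Ppara, the receptor that switches on fatty acid oxidation, it was 0.134, 0.644 and 0.179. Near Scarb1, the HDL receptor, it was 0.196, 0.695 and 0.169. Xenobiotic enzymes and receptors had 14 of 95 (14.7%; 8.42% within GC bins), including an intron of Nr1i2, the receptor PXR, at 0.196, 0.579 and 0.0706. Amino acid and urea cycle genes had 12 of 120 regions, and 3.33% within GC bins.

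Apart from cell type markers, liver transcription factors had a share below that of all shared regions, 15 of 182 (8.24%; 3.85% within GC bins). So did immediate early and circadian genes, with 7 of 115 (6.09%; 4.35%). Within GC bins, PPAR targets, cholesterol genes, amino acid and urea cycle genes and hepatocyte markers also fell below the 4.92% over all shared regions. Matrix and stellate genes stood at 5 of 47 (10.6%; 6.38%). Among the liver transcription factors an intron of Yap1, the Hippo pathway coactivator, had 0.0328 in Control mice, 0.647 in Sham mice and 0.117 after VSG. Near the clock output gene Nfil3 the values were 0.133, 0.645 and 0.301. Shared regions near markers of other liver cells were few: 1 near Kupffer cell, 2 near neutrophil and 5 near stellate markers, none of them in the set, and none near lymphocyte markers. Near sinusoidal endothelial markers 1 of 12 was in the set (Stab2) and near cholangiocyte markers 1 of 3 (Epcam). Near hepatocyte markers it was 5 of 34 (14.7%; 2.94% within GC bins), among them Alb at 0.562, 0.916 and 0.625.

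The submitters' lists of variable sites were made from the same FAIRE libraries and are not independent of the ranking. Of 99 sites more open in Sham than VSG mice, 7 lay in a shared region and 5 of these in the set, and of 414 sites more open in VSG 142 lay in a shared region and none of them in the set. Most sites of the former list thus fell outside the shared regions. A further list held 61 sites more open in Sham than in both other groups. Of these, 6 lay in a shared region and 5 in the set. Of the 175 listed sites less open in Sham than in both other groups, 71 lay in a shared region and none in the set.

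RNA-seq gave a value per mouse that the selection did not use. FPKM, the fragments of a transcript scaled by its length and by the library's size, were summed per gene, and the 9747 genes that reached an FPKM of 1 in 2 or more of the 6 mice were tested with limma on log2(FPKM + 1). Of the 1894 nearest genes 1119 were among them. Depth relative to Control mouse 1, estimated from the spacing of low FPKM values, was 0.674 to 1.57. Of 9 hepatocyte marker genes only 5 had RNA values. They summed to 16929 to 20702 FPKM in Control, 10480 to 18484 in Sham and 16618 to 19708 in VSG mice. Summed Kupffer cell markers, of which 7 of 10 had at least 1 FPKM in every mouse, were 33.8 to 50.9 in Control, 121 to 132 in Sham and 100.5 to 315 in VSG mice. Neutrophil markers were 5.37 to 14.1, 42.3 to 46.7 and 16.9 to 22.3, and sinusoidal endothelial markers 24.1 to 52.4, 8.78 to 12.3 and 32.4 to 37.3, in the same order. Stellate markers were 49.6 to 50.8, 18.6 to 32.6 and 52.2 to 68.8, cholangiocyte markers 31.0 to 33.1, 63.3 to 186 and 31.1 to 145, and lymphocyte markers 0.445 to 0.711, 0.738 to 1.02 and 1.59 to 4.35. Few genes carried these sums. At least 1 FPKM in every mouse was reached by 2 of 7 neutrophil, 2 of 9 sinusoidal endothelial and 1 of 9 stellate genes. Of 6 cholangiocyte genes 1 did so, and of 6 lymphocyte genes 0. Of these other cells' markers, 1 neutrophil gene was listed at 0 in every mouse. The part of these cells in the values below was not tested, and in bulk liver fewer cells of a type and less RNA per cell cannot be told apart.

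None of the 1119 nearest genes passed an adjusted p under 0.1 between Sham and Control mice, against 31 of all 9747 genes (0.318%), by limma with Benjamini-Hochberg adjustment. At an unadjusted p under 0.05, 70 nearest genes were higher in Sham (6.26%, against 6.57% of all genes tested) and 70 were lower (6.26%, against 4.38%). The median log2 difference was −0.00 over the nearest genes and 0.03 over all genes tested. Between VSG and Sham mice none of the nearest genes passed, against 5 of all genes (0.0513%). At an unadjusted p under 0.05, 37 were higher in VSG (3.31%, against 3.24%) and 23 were lower (2.06%, against 1.61%), with a median log2 difference of 0.10 beside 0.08 over all genes tested. The RNA of both Sham mice was above that of the other 4 mice for 62 nearest genes (5.54%, against 5.58% of all genes tested) and below it for 98 (8.76%, against 8.54%). RNA of the nearest genes thus showed the direction of the FAIRE ranking about as often as RNA of any gene. With 2 mice per group only large differences can pass, and the number of calls against Control depended on which Sham mouse was kept.

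The nearest genes with the smallest p values are given as values, since none passed. Between Sham and Control mice, Gas6, a ligand of the TAM receptors, had 10.8 and 8.22 FPKM in the Control, 37.9 and 60.6 in the Sham and 31.4 and 39.5 in the VSG mice (log2 difference Sham minus Control 2.23 ± 0.32 SE, adjusted p = 0.155). Both Sham mice were above both Control mice, and the VSG mice overlapped the Sham mice. Ttc39a had 0.0827 and 0.257 FPKM in the Control, 3.12 and 3.07 in the Sham and 2.16 and 2.23 in the VSG mice. Lifr, a receptor chain of the leukemia inhibitory factor family, was listed at 0 in both Control mice, with 7.08 and 3.77 FPKM in Sham and 7.04 and 7.45 in VSG mice.

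In the other direction, Lpin1 had 91.9 and 129 FPKM in the Control, 6.80 and 10.3 in the Sham and 13.4 and 5.95 in the VSG mice (log2 difference Sham minus Control −3.55 ± 0.44 SE, adjusted p = 0.118). Its RNA was thus lower in both Sham mice than in both Control mice, whereas its promoter region ranked higher in Sham. The VSG mice were as low as the Sham mice. Mtmr7, a myotubularin phosphatase, was listed at 0 in both Sham mice and had 2.71 and 2.71 FPKM in Control and 2.40 and 3.01 in VSG mice. Gm15417 was likewise listed at 0 in both Sham mice, with 3.23 and 3.24 FPKM in Control and 5.31 and 2.91 in VSG mice.

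Between VSG and Sham mice, Dnajc12, a J-domain cochaperone, had 40.0 and 46.9 FPKM in the Sham, 14.7 and 13.2 in the VSG and 15.1 and 22.1 in the Control mice (log2 difference VSG minus Sham −1.57 ± 0.26 SE, adjusted p = 0.471). The groups did not overlap, and Dnajc12 had 2 regions of the set. Efna1, an ephrin ligand, also with 2 regions, had 51.0 and 51.8 FPKM in the Sham, 21.6 and 24.9 in the VSG and 33.6 and 39.5 in the Control mice (adjusted p = 0.517). Dnase2b was listed at 0 in both VSG mice, with 6.49 and 2.79 FPKM in Sham and 2.44 and 3.85 in Control mice. Nrp1 was listed at 0 in both Sham mice, with 15.5 and 14.6 FPKM in VSG and 3.83 and 20.5 in Control mice. An exact 0 in these values can be a failed estimate, as for Hnf4a, which every hepatocyte uses and which was listed at 0 in Sham mouse 1.

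Among the nearest genes with both Sham mice highest, the most abundant was Hp, the acute phase protein haptoglobin. It had 5340 and 5572 FPKM in the Control, 14410 and 22141 in the Sham and 11080 and 4459 in the VSG mice (log2 difference Sham minus Control 1.71 ± 0.57 SE, adjusted p = 0.411). The kininogen gene Kng1 had 1258 and 1096 FPKM in the Control, 1424 and 2969 in the Sham and 959 and 1185 in the VSG mice, and its near copy Kng2, with which it may share reads, had 341 and 310, 435 and 923, and 359 and 408. Plg, the plasminogen gene, ran from 716 to 855 FPKM in the 4 other mice and stood at 896 and 900 in Sham mice. Ang, a secreted ribonuclease, had 918 and 921 FPKM in Sham mice and was listed at 0 in VSG mouse 2. Rps10, a ribosomal protein gene with the seventh largest margin at its promoter, had 462 and 415 FPKM in the Sham and 323 to 408 in the other mice, and pseudogene copies may share its reads.

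For the other most abundant of the nearest genes that were tested, the Sham mice overlapped at least 1 of the other groups. Alb and Serpina1c, each nearest to a region of the set, were not among the genes tested. Apoa2 ran from 7635 FPKM in Sham mouse 2 to 18471 in Sham mouse 1, and Apoa1 from 6334 to 11117. Fgg had 4215 and 4015 FPKM in the Control, 3660 and 6986 in the Sham and 2897 and 1719 in the VSG mice, which were the lowest. Serpina3k, one of a family of near copies, had its highest values in both Control mice, 8311 and 7581 FPKM, and Cyp2e1 its highest in VSG mouse 2, 6479 FPKM.

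Other genes named for their regions showed RNA in either direction. Tlr2, a receptor for bacterial lipoproteins, had 0.638 and 0.399 FPKM in the Control, 2.60 and 2.94 in the Sham and 0.853 and 1.24 in the VSG mice (log2 difference Sham minus Control 1.32 ± 0.25 SE, adjusted p = 0.232). Ppara had 7.30 and 30.5, 41.9 and 36.2, and 9.31 and 19.0 FPKM in the same order, with Sham above all others. Steap4 had 162 and 132 FPKM in the Control, 140 and 266 in the Sham and 58.0 and 61.3 in the VSG mice. Hpd had 1580 and 1410 FPKM in the Control mice and 885 and 415 in the Sham mice, and Dpyd, the enzyme that breaks down pyrimidines, 89.6 and 90.7 against 40.9 and 48.5. Both were lower in Sham than in Control mice in each mouse, while their regions ranked higher in Sham. Socs2, with the fourth largest margin, had 3.47 and 9.04, 4.24 and 10.4, and 7.24 and 3.13 FPKM, so that the groups overlapped.

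**Figure D5:**
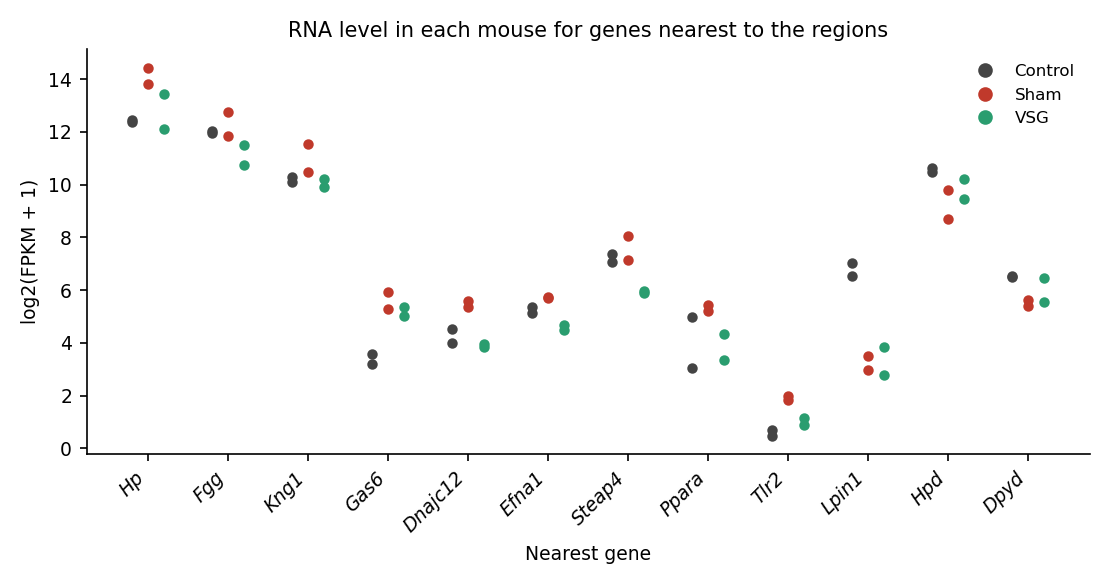
RNA level (y axis, log2(FPKM + 1)) in each of 2 Control, 2 Sham and 2 VSG mice for 12 nearest genes (x axis), picked from the named genes after their values were seen; each point is a mouse. Hp and Tlr2 have both Sham mice highest, and Lpin1 is at 91.9 and 129 FPKM in Control mice but 6.80 and 10.3 in Sham mice.

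By list, the RNA medians of the nearest genes differed in sign. The 8 acute phase genes had a median log2 difference of 0.41 between Sham and Control and −1.04 between VSG and Sham mice. The 8 genes of interleukin 6 and NF-kB signalling had medians of 0.31 and −0.72. The 9 bile acid genes had −0.79 and 0.74, the 9 lipogenic genes −1.04 and 0.38, and the 11 genes of glucose and insulin signalling −0.44 and −0.18. The 12 xenobiotic genes had −0.56 and 0.45. Immediate early and circadian genes (6) had −1.24 and 0.43, amino acid genes (8) −0.98 and 0.64, and apolipoprotein genes (6) −0.91 and 0.76. For PPAR targets (9) the medians were 0.27 and 0.15, for cholesterol genes (7) 0.24 and −0.53. Liver transcription factors (11) had −0.25 and 0.32, chemokine genes (4) 0.05 and −0.16, and matrix genes (3) −0.03 and −0.06. None of these genes passed the test in either comparison. The medians over all genes tested were 0.03 and 0.08, and both comparisons share the Sham mice.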

How the data were processed

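The FPKM values of each RefSeq transcript and mouse were computed by the authors, after alignment to mm9, and carry no counts or depth. The F-seq signal and the summit of each FAIRE peak were computed by the authors after alignment to mm9 with bowtie1, and peaks were kept by IDR over the 2 mice of a group. The deposited lists of variable sites give positions only, and the deposited fold changes and p-values of the authors' comparisons were not used.

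Peaks that overlapped or touched were merged, and a region was present in a list when a peak overlapped it. Regions were annotated with GENCODE M1 (NCBIM37, the same build as mm9), with promoter meaning within 1000 bp of a TSS, and sequences were read from the NCBIM37 genome. Regions of each set, gene lists and motifs were chosen with earlier results of these data known. Of 34933 transcripts 31804 found a gene. Genes were tested by limma 3.58.1 (R 4.3.3, trend used) on log2(FPKM + 1) over all 6 mice, with Benjamini-Hochberg adjustment. P-values rest on 1 estimate of the spread per gene, shared by the 3 groups of 2 mice and drawn toward a trend over all genes. The scripts were tested on simulated data. RNA libraries are described as poly(A)-enriched in the labels and as depleted of ribosomal RNA in the study's methods.

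The regions named are the 10 with the largest margin, 5 on each side of the threshold, up to 4 per gene list and those of the 3 genes with the most regions. Of the 10, 1 is not reported here. The genes named have the 3 smallest p-values per comparison and direction, the 6 highest mean FPKM values or, up to 6, both Sham mice highest. Alternatives changed the margin, width, peak set, ranking, pseudocount, filter, fit and distance, and left out each mouse in turn.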

Additional observations from a re-analysis of the deposited data

How the results depend on the processing

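The set of 2522 regions came to 5322 with a margin of 0.1, 950 with 0.3, 1634 with the strongest 50% of the peaks and 1400 within GC bins, the last chosen after seeing the data. The share within 1000 bp of a TSS, 10.2%, was 12.2% and 8.84% with margins of 0.1 and 0.3, 8.67% for regions under 500 bp, 17.8% with the strongest 50% and 17.4% within GC bins. The median GC content of 49.1% was 49.6% and 48.7% with the other margins, 48.6% under 500 bp, 49.3% with percentiles among all peaks, 50.2% with the strongest 50% and 51.4% within GC bins. With the strongest 50% of the peaks, 16.6% of the original regions were overlapped by the new set. With the mean signal, no limit on width and 50% coverage the set came to 2542, 2572 and 2245 regions. In the same order 10.19%, 10.65% and 10.16% were within 1000 bp of a TSS. The median GC content was 49.06%, 49.17% and 48.99%.

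For Sham against Control, 0 nearest genes passed (31 over all genes), but 4 did with a pseudocount of 0.1 (34 over all), 2 without a filter (62), 5 with each transcript on its own (40) and 2 without a trend (36). Leaving out 1 mouse gave 0 to 31, with 5 without Sham mouse 1 (57 over all genes) and 31 without Sham mouse 2 (169), where the lone Sham mouse is assumed to vary like the other groups. For VSG against Sham, 0 passed (5 over all), but 1 did with each transcript on its own (9) and 1 with only both groups in the fit (9), and leaving out 1 mouse gave 0 to 12, with 4 without Sham mouse 1 (32 over all), 12 without Sham mouse 2 (77) and 1 each without Control mouse 1 and without Control mouse 2 (9 over all each). With the replicate number as a block, 0 passed in both comparisons (9 and 0 over all genes). The mice share only a number: same-numbered mice deviated with correlations of 0.105, 0.0592 and 0.0305. Nearest genes with both Sham mice highest numbered 62 of 1119, and 25 of 487 with a margin of 0.3, beside 5.58% of all genes tested in both settings. The cause of these shifts was not tested. Depth behind the FAIRE lists was not at hand, so counting error could not be given.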
